A study of Saccharomyces cerevisiae with 66 samples.

Results

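The 10 genes described here encode the main enzymes that make and break down trehalose and glycogen, the reserve carbohydrates of budding yeast (Saccharomyces cerevisiae): TPS1, TPS2, TSL1, NTH1, GSY1, GSY2, GLC3, GPH1, GDB1 and SGA1. They were chosen by function, with earlier results of these data known, and are 10 of 6171 gene rows in a table of read counts. The table's own name column gives none of the 10 names to its gene, and the only row named TSL1 there is YER155C, which RefSeq calls BEM2. All 10 were therefore matched by systematic name, and their Entrez identifiers in the table matched RefSeq in 10 of 10 cases. All 10 passed the filter on low counts.

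The 66 libraries are poly(A)-selected, strand-specific RNA-seq of diploid cells in early meiosis in sporulation medium, a starvation medium with acetate. They come from 11 strains, each with 3 libraries given indole-3-acetic acid (IAA, auxin) and 3 given the solvent DMSO, which makes 22 groups. Every strain is a MATa/alpha diploid with trp1::hisG, leu2::hisG, ura3 and lys2 markers, ho::LYS2 and a p-numbered construct at his3. In 9 strains the genotype also gives a 3V5-IAA7:KanMX tag on an RNA decay or RNA-binding factor: POP2, NOT5, DCP2, LSM1, PAT1, PAB1, RAT1, RRP6 or XRN1. The CAF40 strain is assigned from its title, since its genotype label carries no tag. The control, WT, has the TIR ligase, which marks IAA-bound degrons for destruction, but no tagged factor. The treatment text gives 500 µM IAA with 50 µM CuSO4 from 3 h in that medium, while sample titles read 4 h. The same treatment text stands beside every sample, so whether DMSO cultures also received copper is not given in the sources used here. If they did not, IAA against DMSO is also copper against no copper, in WT as in the tagged strains. A change with IAA therefore means a change between these treatments, and the part of copper in it was not tested. The tag acts on protein, so the transcript of a tagged gene does not check its depletion, and no label says whether replicates of a strain are separate clones or cultures. P-values therefore measure the spread between these samples, which may be technical.

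Libraries held 12.6 to 28.3 M counts, the median being 20.7 M. A floor of 3 counts corresponds to 0.103 to 0.231 CPM (counts per 1 M, after TMM scaling) and covers counting error only, since no molecular identifiers are described and PCR reads are then not separate molecules. The 8 early meiotic genes summed to 4126 to 21925 CPM over all libraries. The 8 genes of the haploid cell list summed to 56.2 to 157 CPM, and none was at 0 in all libraries. In WT DMSO the a-factor genes MFA1 and MFA2 averaged 0.543 and 0.0178 CPM, while the other 6, receptor and signalling genes of the mating pathway, averaged 2.65 (STE18) to 29.9 CPM (GPA1). The 9 middle and late sporulation genes ranged from 38.8 to 8295 CPM, so libraries differed in how much of the later programme they held. LSM1 replicate 1 stood apart in both treatments for several of the 10 genes, and the calls and IAA changes in LSM1 are also given without those libraries.

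Trehalose is built from UDP-glucose and glucose 6-phosphate by a complex in which Tps1 makes trehalose 6-phosphate, Tps2 removes the phosphate and Tsl1 is a regulatory subunit. Glycogen is extended by the synthases Gsy1 and Gsy2 and branched by Glc3, then mobilised by the phosphorylase Gph1 and the debranching enzyme Gdb1. In sporulating cells a further amylase, Sga1, degrades glycogen. Many of these genes respond to nutrient limitation and stress through the activators Msn2 and Msn4, which bind the stress response element AGGGG.

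The 500 bases before the start codon held that element, counted as AGGGG on either strand, in 10 of the 10 genes, against 34.1% of 6006 promoters of the same length. At least 3 matches stood in 6 of the 10 genes and in 1.83% of all promoters, and at least 4 in 4 of the 10 and in 0.45%. The middle sporulation element core, searched as CACAAA or CGCAAA followed by A or T on both strands, was present once in NTH1 and once in SGA1, against 30.6% of promoters with at least 1. A match is a run of letters and not a measured binding site. Windows of 5 promoters that carry all their matches to AGGGG are printed 5′ to 3′ on the gene's strand, with those matches (AGGGG, or CCCCT on the other strand) in capitals. TPS1, TPS2 and TSL1 are shown for the trehalose branch, GSY2 for glycogen synthesis and SGA1 for the sporulation amylase. Sequences and coordinates are those of the RefSeq R64 assembly, the authors' build being not given in the sources used here.

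TPS1, chrII:490612-490879, minus strand: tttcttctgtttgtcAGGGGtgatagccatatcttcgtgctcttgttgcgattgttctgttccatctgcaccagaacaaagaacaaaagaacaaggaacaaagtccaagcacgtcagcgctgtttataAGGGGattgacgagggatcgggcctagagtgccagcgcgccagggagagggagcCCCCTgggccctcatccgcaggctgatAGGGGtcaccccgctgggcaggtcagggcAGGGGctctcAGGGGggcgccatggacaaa

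TPS2, chrIV:593393-593604, plus strand: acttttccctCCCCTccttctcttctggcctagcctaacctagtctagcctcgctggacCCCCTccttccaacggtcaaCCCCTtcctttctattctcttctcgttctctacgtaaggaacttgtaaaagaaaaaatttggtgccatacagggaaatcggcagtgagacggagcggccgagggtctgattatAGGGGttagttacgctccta

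TSL1, chrXIII:70231-70478, plus strand: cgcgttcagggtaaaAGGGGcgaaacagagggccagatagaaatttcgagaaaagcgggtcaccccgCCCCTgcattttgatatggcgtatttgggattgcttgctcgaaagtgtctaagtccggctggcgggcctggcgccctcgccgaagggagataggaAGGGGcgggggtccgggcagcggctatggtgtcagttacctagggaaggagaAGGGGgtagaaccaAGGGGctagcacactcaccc

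GSY2, chrXII:660324-660539, plus strand: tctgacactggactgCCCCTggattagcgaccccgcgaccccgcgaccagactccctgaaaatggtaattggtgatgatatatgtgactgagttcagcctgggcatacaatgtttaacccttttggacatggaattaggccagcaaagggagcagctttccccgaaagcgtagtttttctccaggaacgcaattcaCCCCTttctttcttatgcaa

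SGA1, chrIX:177560-177838, plus strand: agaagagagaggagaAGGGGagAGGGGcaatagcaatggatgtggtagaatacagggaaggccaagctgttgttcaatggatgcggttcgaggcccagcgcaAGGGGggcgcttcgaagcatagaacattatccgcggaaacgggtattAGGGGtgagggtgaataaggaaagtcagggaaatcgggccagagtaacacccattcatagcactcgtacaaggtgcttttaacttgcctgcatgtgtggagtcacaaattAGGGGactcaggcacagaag

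TPS1 had 6 matches, TSL1 and SGA1 5 each, TPS2 4, and GSY2 2. The remaining 5 genes had 1 to 3 matches, with the fewest in GDB1 and 2 each in GSY1 and GPH1.

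Per kilobase of coding length, the trehalase gene NTH1 (350 ± 34.2 CPM per kb) and the branching enzyme gene GLC3 (333 ± 50.3) were the most abundant of the 10 in WT DMSO (SD, n = 3). GPH1 (191 ± 61.9) and TPS1 (188 ± 32.6) followed, then GSY1 (130 ± 1.25), GDB1 (100 ± 17.4) and GSY2 (95.8 ± 12.1). TPS2 (70.8 ± 23.9), TSL1 (42.7 ± 12.7) and SGA1 (39.6 ± 23.2) were lowest on this scale. NTH1 and GLC3, GPH1 and TPS1, GDB1 and GSY2, and TSL1 and SGA1 are neighbours whose means differed by less than their spread. Over the 22 groups the mean of a gene varied 2.95-fold (TPS1) to 8.71-fold (SGA1) between its lowest and highest group, on the CPM scale. The highest group was PAB1 IAA or PAB1 DMSO for 7 genes, POP2 IAA for TPS2 and TSL1, and LSM1 IAA for TPS1. That place of TPS1 rests on 1 library: LSM1 IAA had 1428, 241 and 452 CPM, a mean of 707 CPM, and the last 2 values lie below the mean of 686 CPM in PAB1 IAA.

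The question of the first comparison is what each gene did when IAA was given. TSL1 was called higher with IAA in POP2 and CAF40, and TPS2 and GDB1 higher in PAB1, while GSY1 was called lower in XRN1, POP2 and LSM1. The test was limma on all 5828 genes that passed the filter, with Benjamini-Hochberg adjustment per comparison, and a gene is called where the adjusted p is under 0.05. Of 110 tests (10 genes in 11 strains), 4 were called higher and 3 lower in IAA, which is 6.36% of the tests against 12.3% over all genes and strains. In WT, which has no tagged factor, none of the 10 was called, against 3.41% of all genes, and 22 of the 110 tests over all strains had an unadjusted p under 0.05. With the replicate number as a block, in the 8 strains where it paired the libraries, the share was 36.2% against 23.7% of all genes. The counts moved with single libraries: there were 7 higher and 11 lower without LSM1 IAA replicate 1, and 9 higher without LSM1 IAA replicate 2. The higher count was 2 without CAF40 IAA replicate 2 or 3, any CAF40 DMSO replicate or PAB1 IAA replicate 1.

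TSL1, the regulatory subunit of trehalose synthase, gave the largest response to IAA. In POP2 cells, whose tagged factor is a deadenylase of the Ccr4-Not complex, it had 654, 796 and 745 CPM with IAA, against 265, 354 and 352 CPM with DMSO. The groups lay far apart, and no IAA library of another strain reached the lowest of the POP2 IAA libraries. The limma fold change was 2.28 (log2 1.19, SE 0.33, adjusted p = 0.00425), where 36.2% of all genes were called in either direction and 16.7% were called higher.

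In CAF40 cells, tagged by title on another Ccr4-Not subunit, TSL1 had 347, 401 and 361 CPM with IAA, against 177, 213 and 189 CPM with DMSO. Every IAA library was above every DMSO library. The limma fold change was 1.92 (log2 0.94, SE 0.30, adjusted p = 0.0438), with 7.81% of all genes called. This call was lost, at log2 values of 0.88 to 1.01, when any one of the 6 libraries was left out: adjusted p was 0.0662, 0.149 and 0.124 without IAA replicate 1, 2 and 3, and 0.0821, 0.0808 and 0.130 without DMSO replicate 1, 2 and 3. In NOT5 cells, a further subunit of that complex, TSL1 had 140, 226 and 175 CPM with IAA, against 194, 216 and 188 CPM with DMSO, and the groups overlapped (log2 -0.17).

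TPS2, the trehalose 6-phosphate phosphatase gene, had a positive log2 change in 11 of 11 strains, from 0.24 in PAT1 to 0.74 in XRN1, with 0.71 in WT. Its sign was the same in all 11 under each scaling tried. The 3 IAA libraries lay wholly above the 3 DMSO libraries in 8 strains, where 13.7% of genes over all strains did so. It passed the test in PAB1 alone, the strain tagged on poly(A)-binding protein, with 462, 554 and 318 CPM with IAA, against 264, 303 and 242 CPM with DMSO. These groups did not overlap, though the lowest IAA library was close to the highest DMSO library. The limma fold change was 1.63 (log2 0.71, SE 0.27, adjusted p = 0.0482), with 22.2% of all genes called. The call was at the threshold. It was lost without PAB1 IAA replicate 1 (log2 0.67, adjusted p = 0.104) or 2 (0.52, 0.221), without PAB1 DMSO replicate 1 (0.70, 0.102) or 3 (0.63, 0.135), and with total-count scaling (0.49, 0.152), by limma throughout. It was also lost with limma-trend (adjusted p = 0.0558), with no filter on low counts (0.0512), with the PAB1 groups fitted alone (0.142) and without 3 DMSO libraries of other strains with raised CUP1-1 (0.0557). The levels of that last gene are not printed here.

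TPS1, the synthase gene itself, was called in no strain, with log2 changes of -0.02 in XRN1 to 0.62 in PAT1. In PAT1 cells, tagged on a decapping activator, it had 610, 613 and 700 CPM with IAA, against 456, 401 and 395 CPM with DMSO, groups that did not overlap. NTH1, which breaks trehalose down, had log2 changes of only -0.30 to 0.29.

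**Figure D1:**
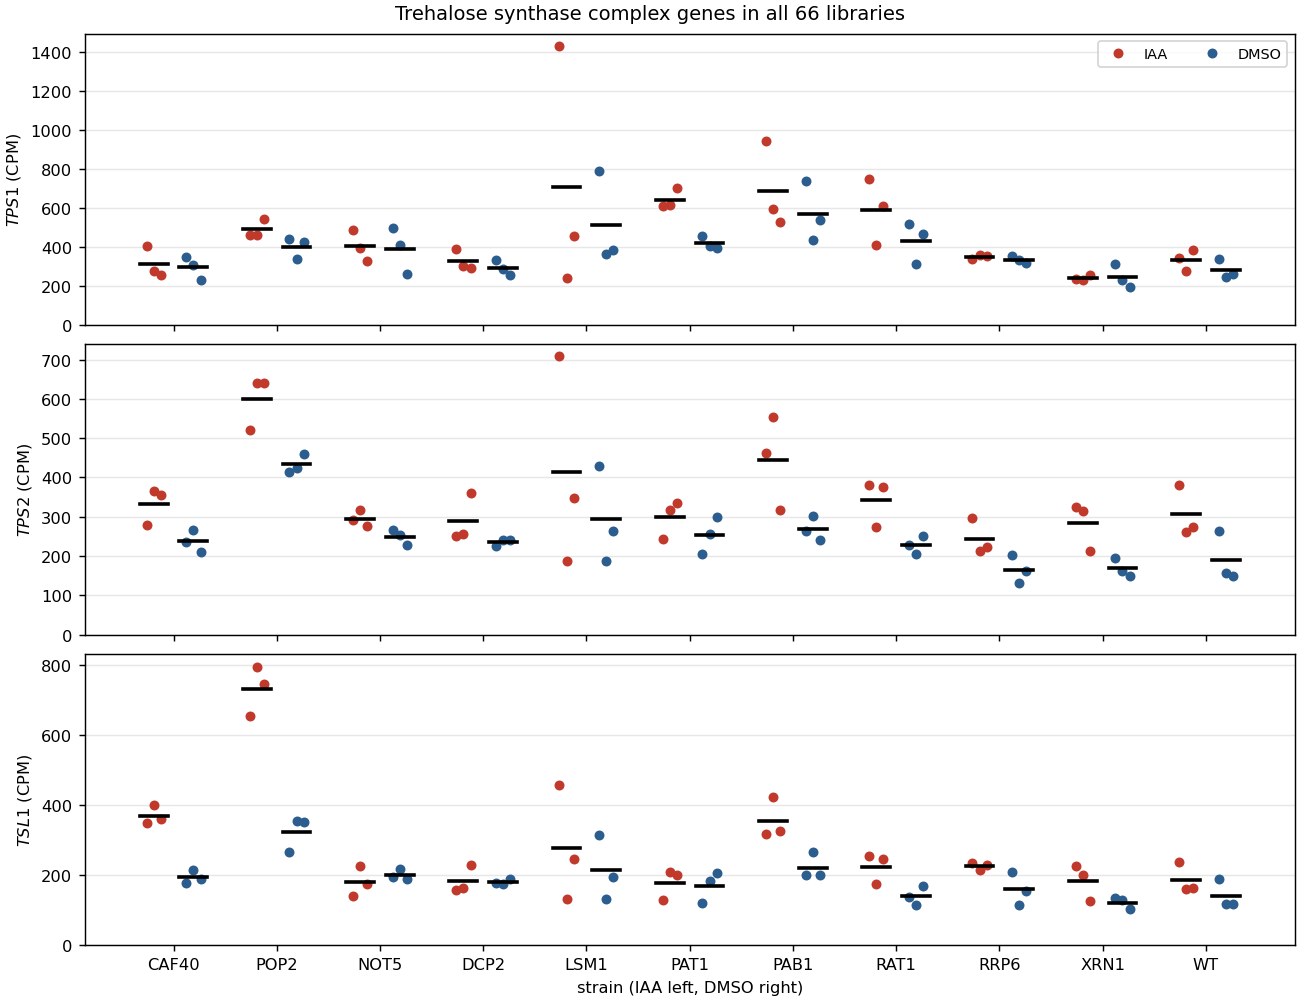
CPM of TPS1, TPS2 and TSL1 in each of the 66 libraries, by strain, with IAA (red) left of DMSO (blue), each point 1 library and each bar the mean of 3. TSL1 in POP2 IAA lies between 654 and 796 CPM, above all other groups, and LSM1 IAA replicate 1 stands alone in TPS1 at 1428 CPM.

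GSY1, a glycogen synthase gene, showed the opposite sign. It had a negative log2 change in 11 of 11 strains, from -0.87 in XRN1 to -0.25 in PAT1, with -0.40 in WT, and this sign was the same in all 11 under each scaling tried. The 3 IAA libraries lay wholly below the 3 DMSO libraries in 8 strains, where 15.3% of genes over all strains did so. In XRN1 cells, tagged on the cytoplasmic 5′ to 3′ exonuclease, GSY1 had 143, 130 and 148 CPM with IAA, against 290, 243 and 237 CPM with DMSO. The groups were well separated. The limma log2 change was -0.87 (SE 0.21, adjusted p = 0.00663), with 8.85% of all genes called and 3.50% called lower. Fitted on the XRN1 groups alone it was -0.88 and no longer called (adjusted p = 0.0585).

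In POP2 cells GSY1 had 153, 112 and 137 CPM with IAA, against 232, 200 and 206 CPM with DMSO, again without overlap (limma log2 -0.68, SE 0.21, adjusted p = 0.00944). It was lost without POP2 IAA replicate 2 (log2 -0.55, adjusted p = 0.0697 by limma). In LSM1 cells, tagged on a subunit of the decapping-promoting ring, GSY1 had 378, 127 and 138 CPM with IAA, against 349, 272 and 271 CPM with DMSO. Replicate 1 was high in IAA and the groups overlapped. The limma log2 change was -0.65 (SE 0.22, adjusted p = 0.0305), with 18.5% of all genes called. Without both LSM1 libraries numbered 1 it was -1.04 (adjusted p = 6.02e-05 by limma), and GSY2 was then also called at -0.73 (adjusted p = 0.0205). The other LSM1 values without these libraries were not called: -1.02 for GPH1 (-0.70 with them), -0.37 for GLC3 (-0.16), 0.20 for TPS2 (0.38), 0.15 for TSL1 (0.28), 0.31 for NTH1 (0.27), 0.24 for GDB1 (0.37) and 0.78 for SGA1 (0.77). TPS1 changed sign, at -0.17 without and 0.17 with them. The GSY1 call was lost without LSM1 IAA replicate 2 (log2 -0.37, adjusted p = 0.314) or 3 (-0.43, 0.267), and without LSM1 DMSO replicate 1 (-0.53, 0.130) or 2 (-0.71, 0.0537), and with the LSM1 groups fitted alone (-0.65, 0.543).

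GSY2 had a negative log2 change in 10 of 11 strains, none called, with the lowest in RAT1 (-0.68). In RAT1 cells, tagged on the nuclear 5′ to 3′ exonuclease, it had 195, 99.1 and 191 CPM with IAA, against 256, 195 and 308 CPM with DMSO. The highest IAA library was level with the lowest DMSO library. RAT1 DMSO replicates 1 and 2 are among the 3 DMSO libraries with raised CUP1-1. Without those 3 libraries the lowest log2 change of GSY2 was -0.99, with 1 library left in RAT1 DMSO. How the authors' counting treated reads shared by GSY1 and GSY2, or by TSL1 and its paralog TPS3, is not given in the sources used here, so the split within each pair is uncertain.

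GPH1, which releases glucose 1-phosphate from glycogen, had negative log2 changes in 10 of 11 strains (-0.70 in LSM1 to -0.06 in RAT1) and 0.55 in PAB1, none called. GLC3 ranged from -0.16 to 0.44 and SGA1 from -0.23 to 0.77, none called. GDB1, the debranching enzyme gene, had positive values in 9 strains and was called in PAB1. There it had 3052, 2755 and 2506 CPM with IAA, against 1617, 1231 and 1537 CPM with DMSO. No library of any other group exceeded 1617 CPM. The limma fold change was 1.91 (log2 0.93, SE 0.29, adjusted p = 0.0172). The call was lost without PAB1 IAA replicate 1 (log2 0.86, adjusted p = 0.0553), without PAB1 DMSO replicate 2 (0.81, 0.0705), with total-count scaling (0.72, 0.0559) and with the PAB1 groups fitted alone (0.93, 0.0513).

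**Figure D2:**
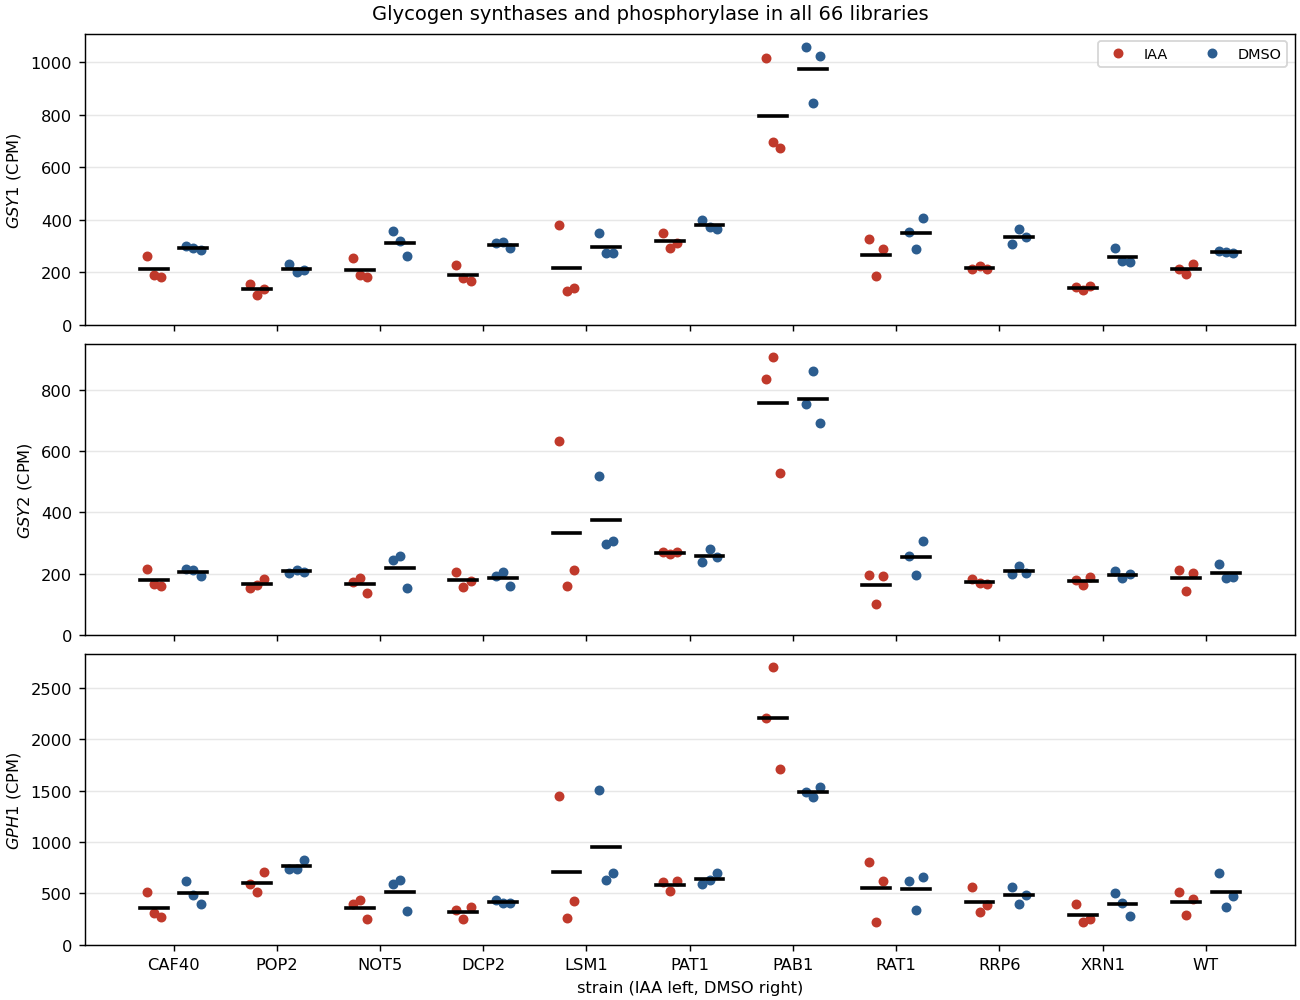
CPM of GSY1, GSY2 and GPH1 in each of the 66 libraries, by strain, with IAA (red) left of DMSO (blue), each point 1 library and each bar the mean of 3. GSY1 sits lower with IAA in every strain by its mean, and all 3 genes are highest in the PAB1 strain, where GPH1 reaches 2702 CPM.

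In 8 strains (LSM1, NOT5, DCP2, PAB1, PAT1, RAT1, RRP6 and XRN1) same-numbered libraries of both treatments deviated together, so the number was also fitted as a block. Of 80 tests in these strains, 17 were then called higher and 12 lower by limma, which is 36.2% against 23.7% of all genes, compared with 4 calls (5.00% against 10.9%) without the block. GSY1 was called lower in 6 of the 8 strains, all but PAB1 and PAT1. TPS2 was called higher in 5 (LSM1, PAB1, RAT1, RRP6 and XRN1) and TSL1 in 4 (PAB1, RAT1, RRP6 and XRN1). GPH1 was called lower in 3 (LSM1, NOT5 and XRN1), GSY2 lower in LSM1 and RAT1, and GDB1 higher in PAB1, RAT1 and RRP6. NTH1 was called higher in LSM1 and RAT1 and lower in XRN1, while TPS1 (PAT1), GLC3 (PAB1) and SGA1 (LSM1) were each called higher in 1 strain. With the block and without both LSM1 libraries numbered 1, an alternative chosen after seeing the data, 18 tests were called higher and 15 lower, which is 41.2% against 28.0% of all genes. In LSM1 the TPS2 call was then lost (log2 0.19, adjusted p = 0.247) and GLC3 was called lower (-0.37, 0.0265), while GSY1, GSY2, GPH1, NTH1 and SGA1 were called in the same direction as with all libraries.

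The mean of the IAA against DMSO change over the 11 strains was computed after the per-strain values had been seen. TPS2 (log2 0.49, SE 0.08), TSL1 (0.47) and GDB1 (0.33) rose and GSY1 (-0.54) and GSY2 (-0.23) fell, with limma adjusted p-values of 1.38e-06, 9.19e-06, 3.66e-04, 3.38e-09 and 0.0113. TPS1 (0.22, adjusted p = 0.0460) and GPH1 (-0.28, adjusted p = 0.0426) passed narrowly. Leaving out 1 library in turn kept the TPS1 call in 32 of 66 fits (log2 0.16 to 0.27) and the GPH1 call in 38 of 66 (-0.35 to -0.23). TPS1 was also not called with total-count scaling (adjusted p = 0.0815), with limma-trend (0.0554) or without the 3 DMSO libraries with raised CUP1-1 (0.105), nor GPH1 with median-of-ratios scaling (0.0566). GLC3, NTH1 and SGA1 did not pass. The 7 calls of 10 stand beside 53.9% of all genes, so calls in this average were common in the transcriptome, and the called folds were small, from 0.687 for GSY1 to 1.40 for TPS2.

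**Figure D3:**
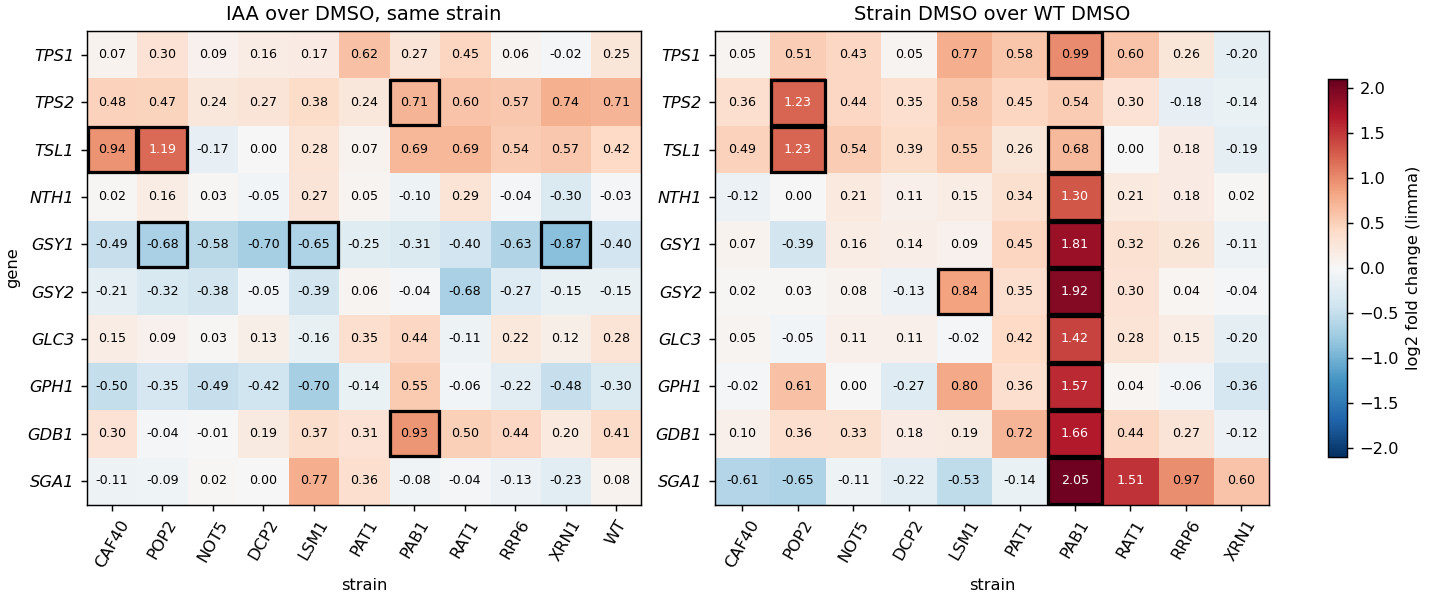
Limma log2 fold changes of the 10 genes (rows) by strain (columns), IAA over DMSO of the same strain on the left and strain DMSO over WT DMSO on the right, with black frames around changes called at an adjusted p under 0.05. The GSY1 row is negative in all 11 strains on the left (-0.87 to -0.25), and 9 of the 10 rows are framed in the PAB1 column on the right.

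The second comparison asks whether the change with IAA in a tagged strain differed from the change in WT. WT received IAA as well. None of the 10 genes was called in any of 10 strains by limma (0 of 100 tests, lowest adjusted p = 0.298), and 0 of 100 had an unadjusted p under 0.05, against 1.88% called over all genes and strains and 9.69% in POP2. Without LSM1 IAA replicate 1, 1 of these tests was called lower. With the replicate number as a block, TSL1 was called in POP2 (0.76, adjusted p = 0.00371) and in NOT5 (-0.60, 0.0316), though the WT numbers, which enter every difference, were not shown to pair the libraries. With the block and without both LSM1 libraries numbered 1, 4 tests were called higher and 8 lower, of which 2 higher and 5 lower were in LSM1. The share of all genes called beyond WT in that fit is not given here, so these counts have no background beside them. The largest positive difference was GPH1 in PAB1 (log2 0.86, SE 0.60, adjusted p = 0.650), followed by TSL1 in POP2 (0.77, adjusted p = 0.298). The lowest was TSL1 in NOT5 (-0.59). With standard errors of this size, differences of about the magnitude seen in single strains could not be resolved, and a p that misses the threshold does not show that strains responded alike.

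The third comparison sets each tagged strain in DMSO against WT in DMSO, both without IAA. These 10 comparisons share the 3 WT DMSO libraries. Of 100 tests, 12 were called higher and none lower, which is 12.0% against 10.2% over all genes and strains. The PAB1 strain gave 9 of the 12 calls. There, 22.3% of all genes were called higher and 23.0% lower, and the median log2 change of the 10 genes was 1.49, against -0.05 for all genes tested.

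Both glycogen synthases were higher in PAB1 DMSO. GSY2 had 754, 863 and 694 CPM in PAB1 DMSO, against 232, 186 and 190 CPM in WT DMSO (limma fold 3.79, log2 1.92, SE 0.28, adjusted p = 5.28e-07). GSY1 had 1059, 844 and 1023 CPM in PAB1 DMSO, against 280, 278 and 274 CPM in WT DMSO (fold 3.50, log2 1.81, SE 0.24, adjusted p = 9.30e-08). The lowest PAB1 library was about 3 times the highest WT library for each gene. GLC3, the branching enzyme gene, had 1975, 1714 and 1942 CPM in PAB1 DMSO, against 826, 648 and 636 CPM in WT DMSO (fold 2.68, log2 1.42, adjusted p = 1.45e-06).

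The genes for glycogen breakdown were higher as well. GDB1 had 1617, 1231 and 1537 CPM in PAB1 DMSO, against 552, 399 and 434 CPM in WT DMSO (limma fold 3.17, log2 1.66, SE 0.26, adjusted p = 1.45e-06). GPH1 had 1485, 1436 and 1537 CPM in PAB1 DMSO, against 700, 371 and 477 CPM in WT DMSO (fold 2.97, log2 1.57, adjusted p = 0.00228). The PAB1 libraries lay above all 3 WT libraries for both genes. Genes of glycogen synthesis, branching and breakdown were thus all called higher in this strain.

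On the trehalose side, NTH1 had the smallest p-value. It had 2119, 1496 and 2292 CPM in PAB1 DMSO, against 856, 705 and 810 CPM in WT DMSO (limma fold 2.46, log2 1.30, SE 0.13, adjusted p = 4.56e-11). TPS1 had 736, 435 and 534 CPM in PAB1 DMSO, against 335, 244 and 261 CPM in WT DMSO (fold 1.99, log2 0.99, adjusted p = 0.00761). TSL1 had 199, 264 and 200 CPM in PAB1 DMSO, against 189, 116 and 117 CPM in WT DMSO (fold 1.60, log2 0.68, adjusted p = 0.0406). None of these groups overlapped, though the lowest PAB1 library of TSL1 was close to the highest WT library. TPS2 had overlapping groups and did not pass (log2 0.54, adjusted p = 0.0737).

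The TPS1 call was lost without PAB1 DMSO replicate 1 (log2 0.80, adjusted p = 0.0553 by limma). The TSL1 call was lost without WT DMSO replicate 2 (0.56, 0.150) or 3 (0.56, 0.146) and without PAB1 DMSO replicate 1 (0.74, 0.0531), 2 (0.54, 0.148) or 3 (0.74, 0.0591), and with these groups fitted alone (0.68, 0.0609). Under total-count scaling the median of all genes shifted by -0.40 in this comparison, and TPS1 (0.60, 0.0974) and TSL1 (0.28, 0.396) were not called while the other 7 genes were. That scaling called 515 genes higher and 2828 lower, against 1300 higher and 1339 lower with TMM scaling.

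**Figure D4:**
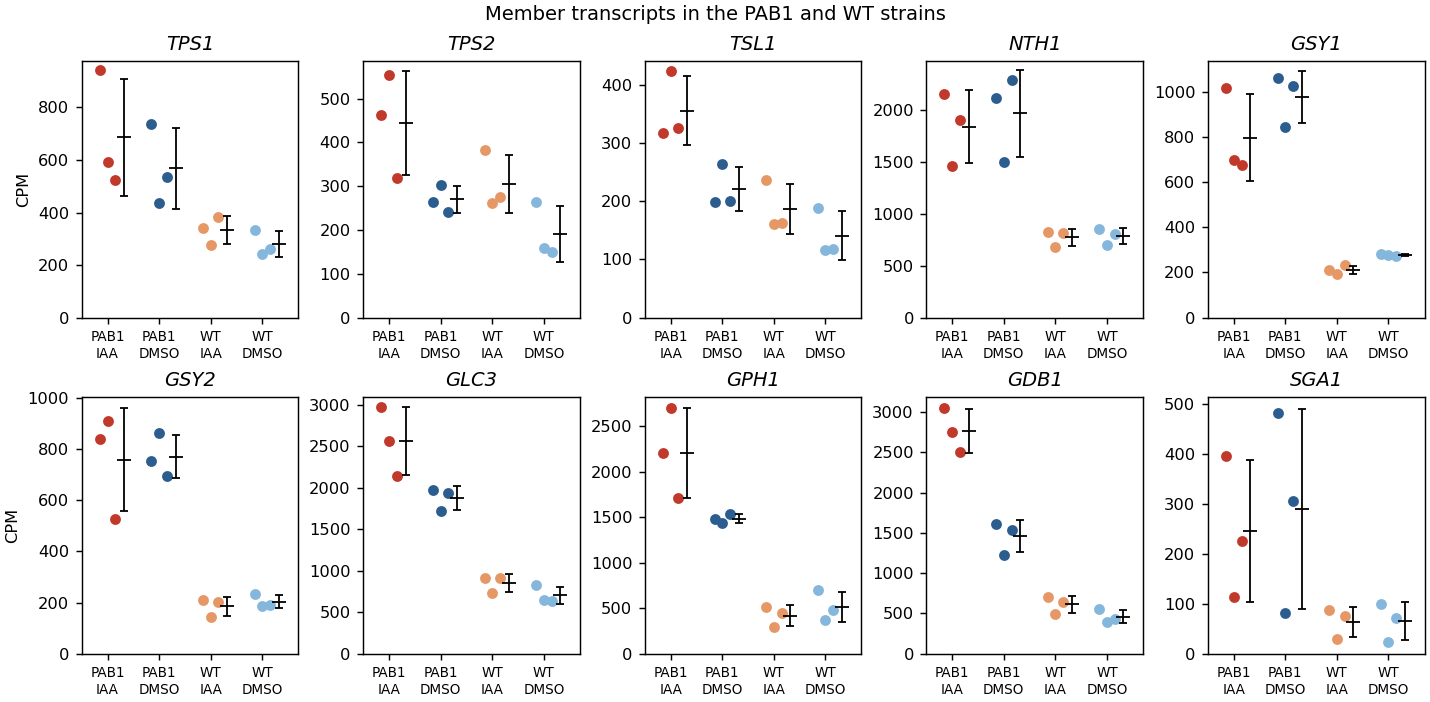
CPM of the 10 genes in PAB1 IAA, PAB1 DMSO, WT IAA and WT DMSO, each point 1 library, with the mean and SD of 3 beside the points. Both PAB1 groups lie above both WT groups for TPS1, NTH1, GSY1, GSY2, GLC3, GPH1 and GDB1, and GDB1 is further raised in PAB1 IAA (2506 to 3052 CPM).

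SGA1, the sporulation amylase gene, had the largest fold change and the widest spread. It had 481, 82.4 and 306 CPM in PAB1 DMSO, against 99.7, 24.1 and 72.3 CPM in WT DMSO, and the groups overlapped through PAB1 replicate 2. The limma fold change was 4.14 (log2 2.05, SE 0.62, adjusted p = 0.00666). The call was lost without PAB1 DMSO replicate 1 (1.52, 0.0673) or WT DMSO replicate 2 (1.43, 0.0825), and with these groups fitted alone (2.05, 0.0729).

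The middle and late sporulation genes moved with it. Their sum was 8295, 532 and 6424 CPM in PAB1 DMSO, against 680, 194 and 581 CPM in WT DMSO, so that replicate 2 was the low one in both strains, as for SGA1. Of the 9 genes, 7 were called higher in PAB1 DMSO and none lower, where 22.3% of all genes were called higher and 23.0% lower. The early meiotic genes summed to 19165 to 21925 CPM in PAB1 DMSO, against 13102 to 14709 CPM in WT DMSO, with 4 of 8 called higher. The haploid list summed to 113 to 153 CPM in PAB1 DMSO, against 80.5 to 84.4 CPM in WT DMSO. Their part in the higher levels of the 9 genes was not tested. In bulk samples, more cells of a type and more RNA per cell cannot be told apart.

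**Figure D5:**
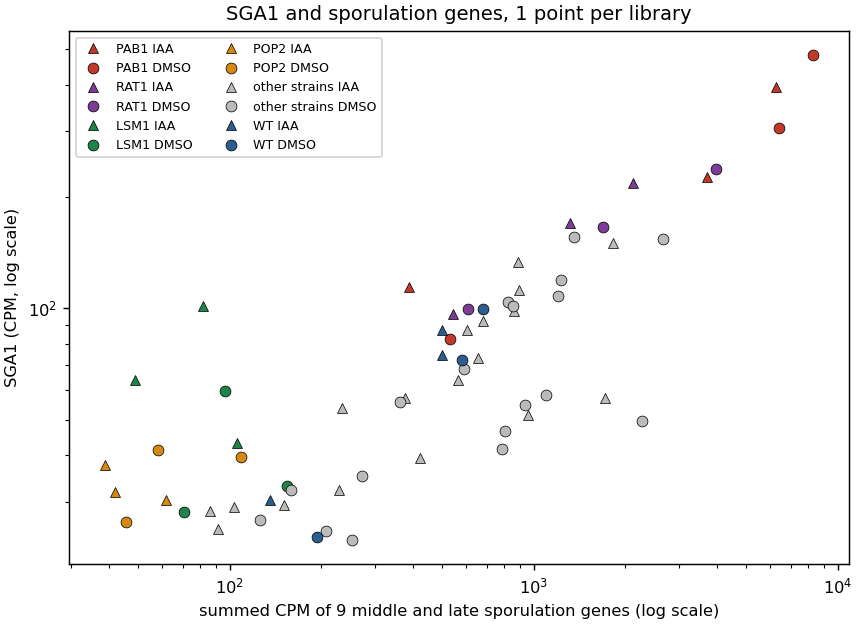
SGA1 CPM against the summed CPM of 9 middle and late sporulation genes, both on log axes, 1 point per library, with IAA as triangles and DMSO as circles and strains by colour. PAB1 DMSO replicates 1 and 3 (481 and 306 CPM of SGA1) lie at the upper right, and the LSM1 libraries have low sporulation sums (48.8 to 154 CPM) with SGA1 between 28.2 and 101 CPM.

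POP2 DMSO differed from WT DMSO in the trehalose synthase complex. TPS2 had 415, 425 and 460 CPM in POP2 DMSO, against 265, 158 and 149 CPM in WT DMSO (limma fold 2.35, log2 1.23, SE 0.27, adjusted p = 6.74e-04). TSL1 had 265, 354 and 352 CPM in POP2 DMSO, against 189, 116 and 117 CPM in WT DMSO (fold 2.34, log2 1.23, SE 0.29, adjusted p = 0.00154). For both genes the POP2 libraries were above every WT library, and both calls held in each fit that left out 1 of these libraries. In this strain 11.9% of all genes were called higher and 12.9% lower. The other 8 genes were not called, among them GSY1 at -0.39. With the rise in IAA described above, TSL1 averaged 732 ± 72.3 CPM in POP2 IAA, 324 ± 50.5 in POP2 DMSO, 186 ± 42.9 in WT IAA and 141 ± 41.8 in WT DMSO (SD, n = 3). The early meiotic sum was lower here, at 7500 to 10411 CPM in POP2 DMSO, against 13102 to 14709 CPM in WT DMSO. With IAA it was 4330 to 7123 CPM in POP2, against 10660 to 13636 CPM in WT, and 7 of the 8 early meiotic genes were called lower with IAA in POP2, where 19.5% of all genes were. Its part in these results was not tested.

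In LSM1 DMSO, GSY2 had 519, 297 and 308 CPM, against 232, 186 and 190 CPM in WT DMSO (limma fold 1.79, log2 0.84, SE 0.27, adjusted p = 0.0159). The groups did not overlap, and 15.6% of all genes were called higher in this strain. The value was 0.58 and no longer called both without LSM1 DMSO replicate 1 (adjusted p = 0.169) and without the libraries numbered 1 in both treatments (0.0560), and 0.78 without WT DMSO replicate 2 (0.0555). Same-numbered LSM1 and WT DMSO libraries deviated together, and with the number as a block TPS1 (0.77, adjusted p = 0.00238), TPS2 (0.58, 0.0360), GPH1 (0.80, 0.0211) and GSY2 (0.84, 0.00112) were called by limma. With the block and without the libraries numbered 1, TPS1 (0.55, 0.0332) and GSY2 (0.60, 0.0182) were called, and TPS2 (0.31, 0.305) and GPH1 (0.52, 0.178) were not. The replicate that stood apart had 1428 CPM of TPS1 in LSM1 IAA, against 241 and 452 CPM in the other LSM1 IAA libraries. It had 790 CPM in LSM1 DMSO, against 361 and 381 CPM in the other LSM1 DMSO libraries. The stress response element targets of that replicate summed to 11291 CPM in IAA and 4529 CPM in DMSO, the highest of their groups.

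In the other 7 tagged strains none of the 10 genes was called against WT in DMSO, where 0.287% of all tests in these strains were called, so the count of 0 is that of the background. PAT1 DMSO had 6 of the 10 genes with all 3 libraries above all 3 WT libraries, where 13.0% of genes did so, with a median log2 change of 0.39 against -0.02 for all genes. RAT1 DMSO had the second highest SGA1, at 238, 99.6 and 166 CPM, against 99.7, 24.1 and 72.3 CPM in WT DMSO, and these groups overlapped only just (log2 1.51, not called).

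Across the 22 group means of log2 CPM, the 45 pairs of these genes had Pearson r values from -0.21 to 0.94 with a median of 0.63, highest for GLC3 with GDB1. Without the 2 PAB1 groups the median was 0.24, with a range of -0.63 to 0.86, so the shared pattern rests largely on the PAB1 strain. TSL1 with TPS2 kept an r of 0.86 there, and the lowest value, -0.63, was between TPS2 and GSY1. The 5 genes outside the set with the most similar profile, by median r with the 10 over the 22 groups, were AMS1 (0.879), NDE2 (0.879), HEF3 (0.870), APE2 (0.831) and TIR1 (0.829), of 5199 scored. AMS1 encodes the vacuolar alpha-mannosidase and HEF3 a translation elongation factor. These r values describe group means that share libraries and scaling and carry no test, and they were 0.296 to 0.493 without PAB1.

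A wider list of 22 genes of trehalose and glycogen metabolism and of sugar phosphate supply was followed in the same comparisons. With IAA against DMSO, 19 of 242 tests were called higher and 26 lower (18.6% against 12.3% over all genes). Against WT in DMSO, 16 of 220 tests were called higher and 9 lower (11.4% against 10.2%). Beyond the WT response, 2 of 220 were called higher and 1 lower (1.36% against 1.88%), all in POP2. The lower count was 9 without LSM1 IAA replicate 1 and 1 to 3 without any other single library, and the higher count was 1 without WT IAA replicate 3, WT DMSO replicate 1 or POP2 IAA replicate 2. In DMSO the higher count was 10 without WT DMSO replicate 2, and the lower count 5 without WT DMSO replicate 1.

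In PAB1 DMSO 10 of the 22 genes were called higher and 3 lower than in WT DMSO, where 22.3% of all genes were called higher and 23.0% lower. Log2 changes of the 22 ranged from -0.58 to 1.56. GAC1, a targeting subunit of the phosphatase that activates glycogen synthase, had 987, 1249 and 1236 CPM in PAB1 DMSO, against 417, 352 and 405 CPM in WT DMSO (limma log2 1.56, SE 0.23, adjusted p = 4.96e-07). HXK1, a hexokinase gene, had 1290, 840 and 1263 CPM in PAB1 DMSO, against 348, 361 and 430 CPM in WT DMSO (log2 1.55, adjusted p = 4.55e-04). PGM2, the main phosphoglucomutase gene, had 2495, 2629 and 2653 CPM in PAB1 DMSO, against 1019, 827 and 858 CPM in WT DMSO (log2 1.53, adjusted p = 7.94e-05). None of these groups overlapped. The acid trehalase gene ATH1 (log2 1.11), the second neutral trehalase gene NTH2 (0.84) and TPS3 (0.80), the other regulatory subunit of trehalose synthase, were also called higher.

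Among 10 regulators of the stress response, 3 were called higher in PAB1 DMSO, near the 22.3% of all genes called higher there: GIS1 (log2 1.58), a transcription factor of the starvation response, RIM15 (1.03), a kinase upstream of it, and MSN2 (0.55, named after its values had been seen), which encodes the activator described above. TPK3 (-0.76), a catalytic subunit of protein kinase A, was called lower. Of the 9 stress response element targets, 2 were called higher there, also near that share: HSP12 (1.95) and PNC1 (0.88). The PNC1 call was lost under total-count scaling (0.48, adjusted p = 0.118), with these groups fitted alone (0.88, 0.106) and without PAB1 DMSO replicate 1 (0.50, 0.121). The other 7 targets did not pass.

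With IAA, GLG2, one of the glycogenins that prime glycogen synthesis, was named after its values had been seen. In WT it had 179, 156 and 221 CPM with IAA, against 397, 364 and 358 CPM with DMSO, well apart (limma log2 -1.02, SE 0.17, adjusted p = 8.95e-05). There 1 of the 22 genes was called lower and 3 were called higher: HXK1 (log2 1.40), TPS3 (0.41) and GAC1, each a call lost in some alternatives. GLG2 was called lower in 10 of 11 strains, all but PAT1 (-0.49, adjusted p = 0.222). Over all genes and strains, 12.3% of tests were called in either direction. The IAA libraries of GLG2 lay wholly below its DMSO libraries in every strain, against 15.3% of genes over all strains. Its calls in DCP2 and NOT5 were lost when single libraries were left out: log2 -0.74 to -0.63 without DCP2 IAA replicate 2 or 3 or DCP2 DMSO replicate 2 or 3, and -0.50 without NOT5 IAA replicate 2. With only the groups compared in the fit, the calls in CAF40 (-0.86, adjusted p = 0.101), LSM1 (-0.78, 0.152), XRN1 (-1.09, 0.119), DCP2 (-0.73, 0.0755) and NOT5 (-0.65, 0.0981) were lost by limma.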

How the data were processed

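The deposited table holds whole-number read counts per gene for 66 libraries, unscaled, below lines of other values: per the file headers these are principal component scores (score values of the authors, not used). STAR 2.7.10a, RSEM 1.3.1 and DESeq2 1.48.1 are named per the submitters' processing notes, with no role given. Genome build, annotation and treatment of shared reads are not given in the sources used here. A further 6 value columns were not used.

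Genes with at least 0.484 CPM (10 counts in the median library) in at least 3 libraries and 15 counts in all were kept, which left 5828 and removed 343. The counts were scaled by TMM and fitted across all genes and 66 libraries with limma 3.58.1 (voom, 0.5 counts added before log2) in R 4.3.3. P-values were adjusted by the Benjamini-Hochberg method within each comparison. A fold change is on the log2 scale with that addition. The procedure was tested on simulated data, scored for the POP2 change with IAA. These had the same dispersion in every gene and no library standing apart, so the test does not cover such libraries. Python 3.11.15 made the tables.

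Replicate numbers were taken as pairing IAA and DMSO libraries where every same-numbered pair of a strain had deviations correlated above 0.1, which held in 8 of 11 strains (30 of 33 pairs, r from -0.159 to 0.696). Between tagged DMSO and WT DMSO it held only for LSM1 (14 of 30 pairs overall). No libraries of a group agreed within sampling noise (chi-square per degree of freedom 21.2 to 1140).

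The 10 genes and all other lists were chosen with earlier results of these data known. Besides the 10, a gene is named where called beyond WT or between DMSO groups, at most the 3 largest changes per list and comparison with a mean of at least 10 CPM. Motif matches and sequences use RefSeq R64, in which 5626 (91.2%) of the table's identifiers were found.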

Additional observations from a re-analysis of the deposited data

Results flagged for a closer look

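Among the genes around the 10 enzymes, 5 changed with IAA differently in a tagged strain than in WT, by the limma test of that difference itself. Such calls were not more common in the wider pathway list than elsewhere: 1.36% of its 220 tests, against 1.88% over all genes and strains. In POP2, where PIG1, PCL8, TPS3 and TPK3 were called, the share of all genes was 9.69%. The share among the stress response genes is not counted here.

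PIG1, a phosphatase targeting subunit related to GAC1, had 137, 110 and 118 CPM in POP2 IAA, against 318, 307 and 335 CPM in POP2 DMSO, and 367, 379 and 410 CPM in WT IAA, against 461, 454 and 438 CPM in WT DMSO. The difference of the changes was log2 -1.17 (SE 0.23, adjusted p = 6.56e-04). With IAA against DMSO, PIG1 was also called in LSM1, NOT5 and PAB1, so a change with IAA was not particular to POP2. The LSM1 and NOT5 calls were lost in some alternatives.

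PCL8, a cyclin of the Pho85 kinase, had 108, 109 and 110 CPM in POP2 IAA, against 72.5, 71.7 and 76.8 CPM in POP2 DMSO, and 51.5, 45.6 and 49.3 CPM in WT IAA, against 65.5, 51.3 and 53.4 CPM in WT DMSO (log2 0.77, SE 0.21, adjusted p = 0.0127). Neither PIG1 nor PCL8 lost its call beyond WT in POP2 in any alternative run.

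TPS3 had 144, 162 and 148 CPM in POP2 IAA, against 79.7, 85.5 and 77.6 CPM in POP2 DMSO, and averaged 93.4 CPM in WT IAA, against 70.3 CPM in WT DMSO (log2 0.49, SE 0.14, adjusted p = 0.0143). It was not called without WT IAA replicate 3 (0.45), WT DMSO replicate 1 (0.41) or POP2 IAA replicate 2 (0.44). With IAA against DMSO, TPS3 was also called higher in CAF40 (0.66), PAB1 (0.51), XRN1 (0.50), RRP6 (0.43), WT (0.41), RAT1 (0.38) and LSM1 (0.29). All of these calls were lost with only the groups compared in the fit. It was not called in DCP2 (0.29), PAT1 (0.11) or NOT5 (-0.14). How reads shared with TSL1 were counted is not given in the sources used here.

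TPK3 differed by log2 0.72 in POP2 (SE 0.24, adjusted p = 0.0416), a call lost in 10 of 22 alternatives. These include leaving out WT IAA replicate 1 (0.67) or 3 (0.58), WT DMSO replicate 2 (0.60) or 3 (0.73), POP2 IAA replicate 2 (0.70) or 3 (0.69), and POP2 DMSO replicate 1 (0.61) or 3 (0.71). SNF1, the kinase of the glucose derepression pathway, differed by 0.43 in RAT1 (SE 0.11, adjusted p = 0.00779). The call was lost with only the groups compared in the fit (0.43, adjusted p = 0.0559) and without the 3 DMSO libraries with raised CUP1-1 (0.39, 0.147), of which RAT1 DMSO replicates 1 and 2 are part. It had 329, 327 and 360 CPM in RAT1 IAA, against 254, 250 and 264 CPM in RAT1 DMSO, and averaged 261 CPM in WT IAA, against 266 CPM in WT DMSO.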

How the results depend on the processing

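Over 829 alternatives to the 26 called changes of the 10 genes, 722 kept the direction and the call, 107 kept the direction without the call and 0 reversed. For 47 called changes of other genes, 697 of 782 alternatives kept the call and 0 reversed. The cause of the losses was not tested.

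With the replicate number as a block in all strains, IAA against DMSO gave 24 higher and 15 lower calls of the 10 genes. The share of all genes called in that fit over all strains is not given here. Beyond WT there were 1 higher (TSL1 in POP2, 0.76) and 1 lower (TSL1 in NOT5, -0.60), and in DMSO against WT DMSO 1 lower. Higher calls in DMSO are not counted here, but GSY1, GSY2, GLC3, GPH1, GDB1 and NTH1 kept theirs in PAB1. For the 22 other pathway genes the block gave 37 higher and 42 lower calls with IAA. Lower calls numbered 13 beyond WT and 15 in DMSO. Higher calls are not counted here for beyond WT and DMSO, though PCL8 in POP2 and GAC1, HXK1 and PGM2 in PAB1 DMSO kept theirs. In each of WT, CAF40 and POP2 only 2 of 3 same-numbered pairs had deviations correlated above 0.1, so the numbers were not shown to pair the libraries. Calls that the block adds in these strains assume that pairing.

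Without both LSM1 libraries numbered 1, an alternative chosen after seeing the data, the 10 genes gave 9 higher and 9 lower calls with IAA, and the pathway genes 9 lower beyond WT. With the block as well, the 10 genes gave 25 higher and 20 lower calls with IAA, 4 higher and 8 lower beyond WT and 1 lower in DMSO, and the pathway genes 41 higher and 49 lower with IAA and 4 higher and 20 lower beyond WT. Fitting only the groups compared gave 1 lower call of the 10 genes in DMSO, and for the pathway genes 7 higher and 12 lower with IAA, 3 lower beyond WT and 4 lower in DMSO. Total-count scaling gave the pathway genes 3 lower beyond WT and 16 lower in DMSO, and limma-trend with 1 CPM added gave 2 lower beyond WT. Where only lower calls are printed, the higher calls are not counted here, so the balance of directions cannot be read from them. In each of these alternatives GSY1, GSY2, GLC3, GPH1, GDB1 and NTH1 kept their higher call in PAB1 DMSO, and PCL8 its higher call beyond WT in POP2. All these counts stand without the share of all genes called in the same fit.

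Leaving out each library in turn, the 10 genes had 2 to 9 higher and 2 to 11 lower calls with IAA, 0 to 0 higher and 0 to 1 lower beyond WT, 9 to 15 higher and 0 to 0 lower in DMSO, and 3 to 5 higher and 2 to 3 lower in the mean over strains. The pathway genes had 16 to 21 higher and 24 to 34 lower with IAA, 1 to 2 higher and 1 to 9 lower beyond WT, and 10 to 21 higher and 5 to 11 lower in DMSO. Where an arm kept fewer libraries, its spread was taken from all groups. With 3 libraries a group, the standard error of SGA1 was 0.62 in the PAB1 and WT comparison and that of GPH1 0.60 for PAB1 beyond WT.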
